A study of Drosophila melanogaster with 3 samples.

Results

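Kr-h1 (FBgn0266450) lies on the plus strand of chromosome 2L of *Drosophila melanogaster*, from 6082603 to 6096498 in the dm6 build. The locus described here is this gene with 50 kb on either side, 6032603 to 6146498, and every binding peak of the transcription factor Met whose summit falls in it. It held 14 of the 8513 peaks of the authors' reproducible list (the IDR list, thresholded on the irreproducible discovery rate) and 40 of the 30000 peaks of their pooled list. The lists of replicates 1, 2 and 3, of 30000 peaks each, had 42, 40 and 38 peaks in it. Kr-h1 is 1 of 13945 annotated protein-coding genes and was chosen by the authors' peak signals, since the strongest peaks of these lists lie at it. These signals are therefore given as a description and no test is made on them.

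The samples were 3 biological replicates of 1 group, so no condition was compared with another. They were whole white prepupae of both sexes, pooled and of unknown age, from the Met-GFP strain, a transgenic line that expresses Met with GFP at its C-terminus. Chromatin sheared by sonication to 200 to 800 bp was immunoprecipitated with an antibody to GFP and sequenced (ChIP-seq). The peaks are thus those of a tagged protein in 1 line, averaged over all tissues of the animal. Peaks were called in each replicate and in the pooled replicates against a control that all lists of a build shared. No transcript was measured.

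Juvenile hormone holds insect larvae in the larval state, and its fall allows metamorphosis. Met is a bHLH-PAS transcription factor that binds the hormone, pairs with the coactivator Taiman, and acts on genes through E-box and related sites. Kr-h1 encodes a zinc finger transcription factor that the hormone induces through Met in many insects, and which represses genes of adult development. White prepupae have just formed the puparium, at a pulse of the moulting hormone ecdysone.

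The 3 strongest peaks of the IDR list all lay at Kr-h1, within 9377 bp of each other. The sequences around their summits, and around the weaker summit at the first Kr-h1 promoter, are printed because the results on shared motifs turn on them. Each runs 5′ to 3′ on the plus strand of dm6 and reaches 55 bp to either side of the summit in the pooled list. In the first 3, capitals mark the palindromic E-box CACGTG, the C-box CACGCG, and copies of the pattern GTGCNNNNNTTTTCGAC. In the third the copy of the pattern lies on the minus strand, and so reads as its reverse complement. In the fourth, capitals mark the bHLH-PAS core GCGTG on the plus strand and its reverse complement.
The strongest peak, intron of Kr-h1, 2L:6088445-6088555: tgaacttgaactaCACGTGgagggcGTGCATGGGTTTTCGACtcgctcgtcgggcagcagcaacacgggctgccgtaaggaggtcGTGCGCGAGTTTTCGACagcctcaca
The second peak, exon of lncRNA:CR9162, 2L:6079068-6079178: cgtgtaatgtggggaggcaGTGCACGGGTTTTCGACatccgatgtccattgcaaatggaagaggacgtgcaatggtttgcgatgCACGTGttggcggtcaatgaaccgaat
The third peak, upstream of Kr-h1, 2L:6081403-6081513: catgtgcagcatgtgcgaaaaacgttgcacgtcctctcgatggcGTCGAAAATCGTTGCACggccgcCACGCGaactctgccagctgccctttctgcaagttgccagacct
The peak of rank 857, first promoter of Kr-h1, 2L:6082408-6082518: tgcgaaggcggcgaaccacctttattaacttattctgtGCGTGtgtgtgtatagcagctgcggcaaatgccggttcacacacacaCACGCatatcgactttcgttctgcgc

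The strongest peak (6087678 to 6088934) had its summit at 6088500, 5897 bp into the gene from the first transcription start site (TSS). It lies in the long first intron of the longer transcript, Kr-h1-RA, and 2912 bp upstream of the start of the shorter one, Kr-h1-RB, which the gene CG45075 shares. The authors' signal there was 3995.78 in replicate 1, 5209.68 in replicate 2 and 4804.17 in replicate 3, and 13960.8 in the pooled list. The signal is the peak caller's own value, and its scale may depend on the depth of a library, so peaks are compared within a list only. Within its list this peak was 193, 247 and 239 times the median peak in replicates 1, 2 and 3.

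The second peak (6078671 to 6079617) had its summit at 6079123, 3480 bp upstream of the first Kr-h1 TSS. The summit falls within a noncoding exon, that of lncRNA:CR9162, and 641 bp upstream of another noncoding gene, lncRNA:CR44773, whose TSS is the nearest. Its signal was 3169.05, 4603.45 and 4192.33 in replicates 1, 2 and 3. That was 79.3%, 88.4% and 87.3% of the strongest peak, or 85.0% ± 4.94 (mean ± SD, n = 3). The first peak was the higher in all 3 replicates, by a factor of 1.26, 1.13 and 1.15 (1.18 ± 0.0578).

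The third peak (6081066 to 6082052) had its summit at 6081458, between genes and 1145 bp upstream of the first Kr-h1 TSS. Its signal was 2055.31, 2916.78 and 2537.42 in replicates 1, 2 and 3, or 53.4% ± 2.33 of the strongest peak (SD, n = 3). The second peak exceeded it by a factor of 1.59 ± 0.0459. The order of the 3 peaks was the same in each replicate list, and they held ranks 1, 2 and 3 in all of them.

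The distance from the third peak down to the strongest peak outside the locus varied more. The third peak was 1.18 times that peak in replicate 1, 1.60 times in replicate 2 and 1.44 times in replicate 3 (1.41 ± 0.174, SD, n = 3), and 1.54 times in the pooled list. In replicates 2 and 3 and the pooled list the outside peak lay on 3R, 2381 bp or 2379 bp downstream of the TSS of lncRNA:CR46113. In replicate 1 it lay on 3L at the promoter of CG14100. Replicate 1 was also the library in which the strongest peak stood least above the list's median and most above the second. Sequencing depth, which these lists do not hold, was not tested for its part in these differences.

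**Figure D1:**
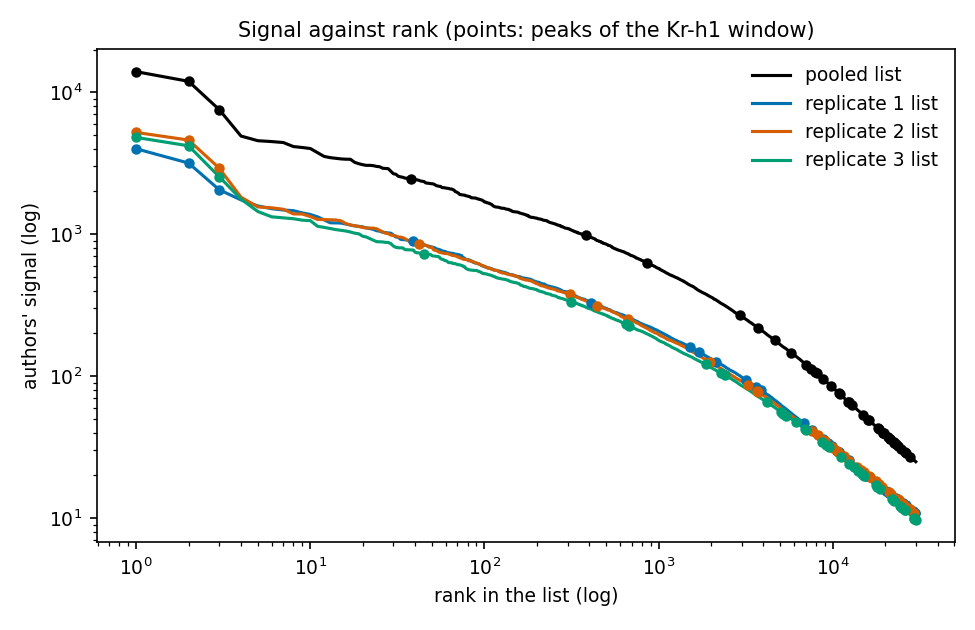
Authors' signal (log axis) against rank (log axis) in the pooled list and in the 3 replicate lists of 30000 peaks each; points mark the peaks of the Kr-h1 window. In every list the first 3 points stand above the rest of the curve and the next point of the window comes at rank 38 in the pooled list and at 39, 42 and 45 in replicates 1, 2 and 3.

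The strong peaks were also wide. Most peaks have a set width, 440 bp in 87.7% of the pooled list, while the leading 3, in order, spanned 1257, 947 and 987 bp. The first was the widest of the pooled list, and the third and the second were the 9th and 10th widest, among 11 peaks over 900 bp. In replicate 1 the widths were 721, 702 and 643 bp, in replicate 2 they were 1178, 883 and 803 bp, and in replicate 3 they were 1123, 857 and 882 bp. All 9 were above the commonest width of their lists (420, 424 and 420 bp). Width and signal come from the same reads, so the width adds no separate evidence.

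The 3 summits were placed closely in each library. The strongest had its summit at 6088501, 6088496 and 6088499 in replicates 1, 2 and 3, a range of 5 bp. The range was 11 bp for the second and 3 bp for the third. In the dm3 lists the ranges of the first and the second were the same, and that of the third was 15 bp, through the summit of replicate 2. Over the 8371 IDR peaks with a match in all 3 replicates the median range was 46 bp (quartiles 24 and 79.5), and for the 97 of rank 4 to 100 it was 14 bp (quartiles 8 and 20). The first and second summits lay 9378, 9367 and 9381 bp apart in replicates 1, 2 and 3, and the third lay 7043, 7038 and 7038 bp from the first. These ranges are below the length of the sheared fragments.

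Smaller summits sat on the shoulders of these peaks in some libraries. In replicates 2 and 3 a second summit lay 209 and 204 bp downstream of the third peak's summit, toward the Kr-h1 promoter, with signals of 378 and 232. It ranked 310 and 646 in those lists. In replicate 1 no such summit was listed there, and instead one lay 221 bp upstream of the second peak's summit, with a signal of 126 and rank 2145. None of these was a separate peak in the pooled list.

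**Figure D2:**
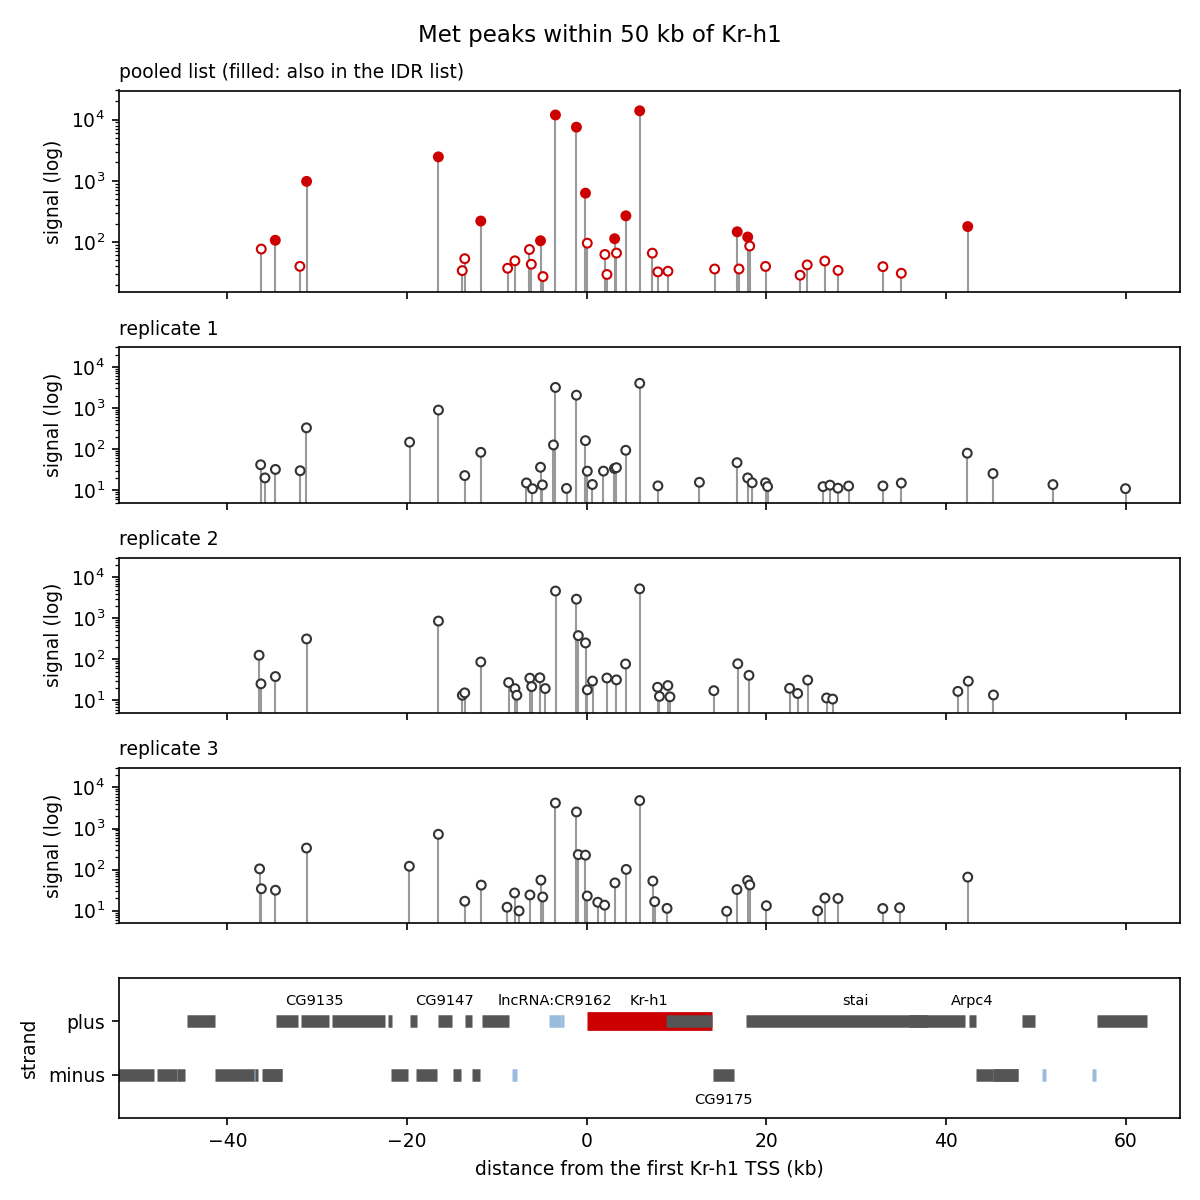
Authors' signal (log axis) of every peak in the Kr-h1 window by distance of its summit from the first Kr-h1 TSS in kb, for the pooled list and each replicate; filled points are the 14 that are also in the IDR list. The lowest panel shows genes by strand, with Kr-h1 in red, other protein-coding genes in grey (CG45075 lies over the 3′ part of Kr-h1) and noncoding genes in pale blue; the 3 highest points lie at -3480, -1145 and 5897 bp in every list to within 11 bp.

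The first Kr-h1 promoter had a far weaker peak than the leading 3. Its summit at 6082463 lay 140 bp upstream of the TSS, with a signal of 160.659, 251.565 and 225.173 in replicates 1, 2 and 3. That was 4.02%, 4.83% and 4.69% of the strongest peak, or 4.51% ± 0.431 (SD, n = 3), and its rank was 1520, 665 and 676. The 3 summits agreed within 7 bp. In replicate 1 the listed interval was 105 bp wide, against 452 and 456 bp in the others. It ended at 6082461, before its own listed summit at 6082462, so its width is not comparable with theirs. Each replicate also listed a weaker summit downstream of the TSS, at 65, 68 and 59 bp in replicates 1, 2 and 3. The pooled list held such a summit too, in the same interval as its promoter peak, at 60 bp downstream of the TSS, with a signal of 95.4 and rank 8814. That was the strongest peak of the locus left out of the IDR list, whose lowest signal is 98.7, while the weakest inside was 104 at rank 8089.

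The second promoter, at 6091412, had no IDR summit within 500 bp, though the pooled list had 1 there. Within the gene body 2 further IDR peaks lay in the same intron as the strongest. The one at 6086963, 4360 bp from the first TSS, reached 1.98% ± 0.444 of it and rank 2927, and the one at 6085712, 3109 bp from it, reached 0.814% ± 0.192 and rank 7512 (SD, n = 3). Their summits ranged over 76 and 219 bp between replicates. For the peak at 6085712 the only overlapping peak of replicate 2 had its summit at 6085911. That is beside a separate pooled summit at 6085914, so the mean, SD and range may mix 2 neighbouring peaks. In all, 3 IDR summits lay in the gene body, 3 in the 5 kb upstream and 8 elsewhere in the window. In the pooled list the body held 10 and the upstream stretch 4.

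Below the leading 3 the locus was ordinary in median signal, though its IDR peaks of rank 38, 383 and 857 stood high in the list. The 37 other pooled peaks had a median signal of 53.2, against 53.0 over the whole pooled list. The 11 other IDR peaks had a median of 178, against 194 over the IDR list. Of the 40 pooled peaks 14 (35.0%) were in the IDR list, against 28.4% of all pooled peaks. In number of peaks the window was above the median without being at the top. Over 1172 stretches of the same length along the chromosome arms the median was 6 IDR peaks and the highest 41, and 189 stretches (16.1%) held 14 or more.

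The strongest peaks away from Kr-h1 lay at its neighbours upstream. The peak of rank 38 had its summit 6 bp downstream of the TSS of CG9147, in its 5′ UTR, and within 500 bp of the TSS of the divergent gene Fbw5, which encodes an F-box protein with WD repeats. Its signal was 892.367, 855.119 and 724.578 in replicates 1, 2 and 3, with ranks of 39, 42 and 45. That was 17.9% ± 3.86 of the strongest peak (SD, n = 3), with the highest percentage in replicate 1. The peak of rank 383 lay in an intron of CG9135, 588 bp from its TSS, and reached 7.09% ± 1.11. Here too the percentage was highest in replicate 1.

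**Figure D3:**
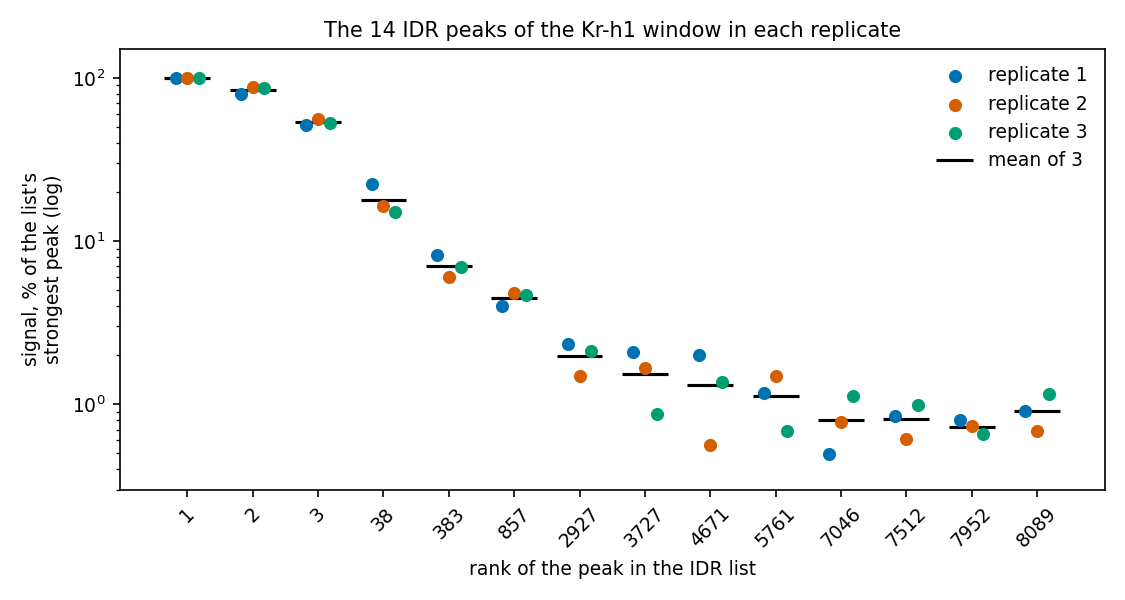
Signal of the 14 IDR peaks of the window as a percentage of the strongest peak in the same replicate list (log axis), by rank in the IDR list; coloured points are replicates and bars their mean. The first 6 peaks keep their places in all 3 replicates, while from rank 2927 on the points of different peaks overlap.

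The remaining peaks were weak. At rank 3727 a summit lay 127 bp upstream of CG9154 and within 500 bp of Kr-h2. Others lay 125 bp upstream of Arpc4, which encodes a subunit of the actin-nucleating Arp2/3 complex (rank 4671), 384 bp upstream of CG9175 (rank 5761), and 142 bp downstream of the TSS of stai, which encodes the microtubule regulator stathmin (rank 7046). The peak of rank 7952 lay 9 bp upstream of 1 of the 2 TSSs of slmo, a mitochondrial protein gene, and near IPIP. Its summit is inside slmo, in the 5′ UTR, and in the 3′ UTR of CG34179. The peak of rank 8089 lay 992 bp upstream of lncRNA:CR9162. Counting all TSSs, 7 of the 14 summits lay within 500 bp of one, against 32.6% of all IDR summits. A Kr-h1 TSS was the nearest for 5 of the 14, or for 7 where only coding genes were considered.

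These weak peaks varied more between libraries. All 14 IDR peaks were overlapped in all 3 replicate lists, against 98.3% of the IDR list. Of the 40 pooled peaks 28 were (70.0%, against 61.4% of all pooled peaks), 7 were in 2 replicates and 5 in 1. In both shares 1 replicate peak could count for 2 adjacent pooled peaks, as it did at 6099350 and 6099551. The coefficient of variation of the percentage of the strongest peak was 9.56% to 21.5% for the 3 peaks of rank 38, 383 and 857, and 9.88% to 54.7% (median 31.4%) for the 8 weaker ones. The most variable was the Arpc4 peak, with signals of 79.6, 29.4 and 65.7 in replicates 1, 2 and 3. The stai peak ranked 15605, 7638 and 5213. In replicate 2 its match had the summit at 6100662, nearer a second pooled summit at 6100741 than the IDR summit at 6100519. The same holds for the replicate 2 match of the peak of rank 7512, so these values may not all be of 1 peak. Over the 14 peaks the signals of pairs of replicates had a Spearman's rho of 0.877, 0.895 and 0.754, a description across peaks of the same libraries.

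**Figure D4:**
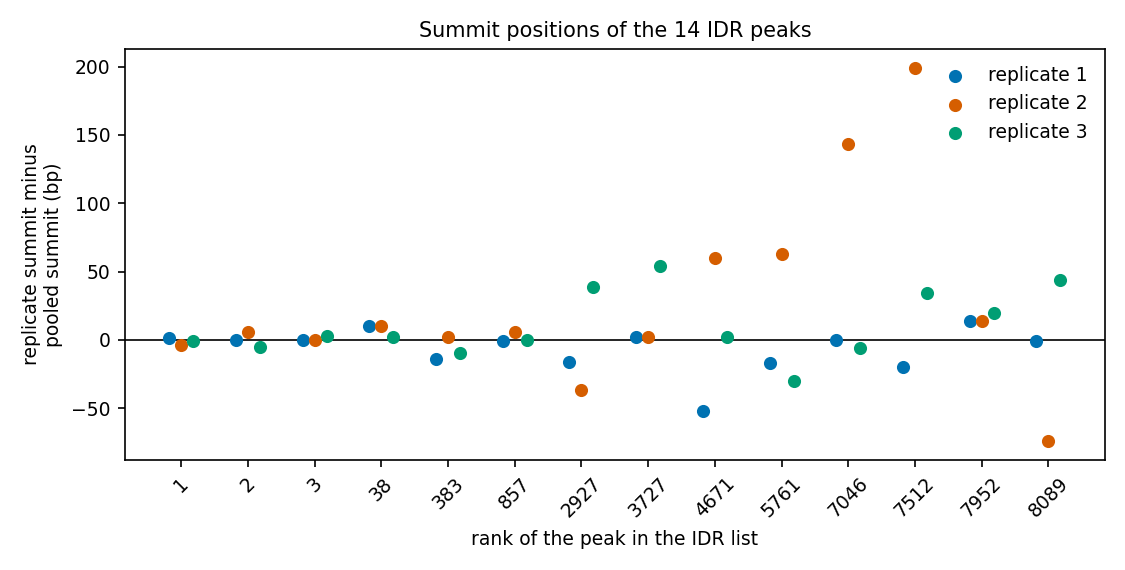
Distance in bp of each replicate's summit from the pooled summit for the 14 IDR peaks, by rank in the IDR list. The points of ranks 1 to 857 lie within 14 bp of the line, and those of the 8 weaker peaks reach from -74 to 199 bp. The point at 199 bp is a replicate 2 summit at 6085911, beside a separate pooled summit at 6085914.

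Of the 30 protein-coding genes in the window, 10 had an IDR summit within 500 bp of a TSS, against 18.6% of all coding genes. They were Kr-h1, slmo, IPIP, Fbw5, CG9147, CG9154, Kr-h2, CG9175, stai and Arpc4. Of these, slmo and IPIP shared 1 peak, as did Fbw5 and CG9147, and CG9154 and Kr-h2, so the 10 genes rest on 7 peaks. A further 5, Pfas, CG9135, CG9150, Pfdn1 and CG45075, had a pooled summit but no IDR summit there. The other 15 had neither: CG9109, mtm, CG9117, CG31643, CG34179, CG13995, CG34180, ND-51, CG13994, CG31642, WDR79, B9d2, tctn, CG9222 and CG13991. The share of all coding genes with a pooled summit there is not given here, so the counts for pooled summits are not set against the genome.

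Some peaks of the replicate lists had no counterpart in the pooled list: 9 of 42 in replicate 1, 5 of 40 in replicate 2 and 5 of 38 in replicate 3 overlapped no pooled peak. The share over all peaks of each replicate list is not given here, so these counts are not read as particular to the locus. Among the 8513 strongest peaks of each list the only such site in the window was the promoter between ND-51, which encodes a subunit of respiratory complex I, and CG13994, where replicate 1 had a peak with a signal of 148 and rank 1711, and replicate 3 one with 121 and rank 1866. Their summits were 27 bp apart. Replicate 2 and the pooled list had no peak there. This was 1 of the 13 peaks of that strength in the window in replicate 1, 0 of 13 in replicate 2 and 1 of 17 in replicate 3, against 5.12%, 3.47% and 4.91% over the whole lists. A weaker site was the promoter of WDR79, with peaks of rank 12330 in replicate 1 and 23578 in replicate 2. At the promoter of Pfas, a gene of purine synthesis, replicates 2 and 3 had peaks of rank 1983 and 2292 at 90 and 147 bp upstream, and replicate 1 one of rank 7619 at 266 bp. Replicates 2 and 3 also listed weaker summits at 300 and 346 bp, of rank 12447 and 8733. The pooled list had a single summit at 332 bp with rank 10815, outside the IDR list, with no second summit nearer the TSS. The cause of these differences was not tested.

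Of the 7 motifs searched on both strands within 50 bp of the 14 summits, the E-box CACGTG was at 2 (0.787% of all IDR summits have it) and the C-box CACGCG at 1 (1.42%). They were the leading 3 peaks: the E-box ended 37 bp before the strongest summit and began 29 bp after the second, and the C-box began 12 bp after the third. The strongest peak also had a C-box 63 bp after its summit. The window as a whole held 21 E-boxes, of which 2 (9.52%) were near an IDR summit, against 0.42% of 16428 on the chromosome arms. It held 37 C-boxes, of which 1 (2.70%) was, against 0.52%. These are the same copies already named at the leading 3 summits, for which the locus was chosen. The window also held 14 IDR peaks, against a median of 6 in stretches of its length, so these shares add no separate evidence. Most copies of either motif in the locus lay in no IDR peak (3 of the E-boxes and 4 of the C-boxes did).

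The core GCGTG, which is part of the C-box on its other strand, was at 4 of the 14 summits (7.02% of all IDR summits). These were ranks 1, 3, 857 and 2927, all at Kr-h1. At the first promoter, rank 857, it occurred both 13 bp before and 30 bp after the summit, and the E-box CAGCTG spanned the summit itself. CAGCTG was at 2 summits (2.9%), CATATG at 1 (3.88%), the GAGA element GAGAG at 1 (10.3%) and the Zelda site CAGGTAG at 0 (0.423%). Anywhere in the 14 peaks the counts were 3 for CACGTG (4.42% of all IDR peaks), 4 for CACGCG (7.51%), 7 for GCGTG (32.9%), 5 for CAGCTG (15.9%), 4 for CATATG (12.7%), 7 for GAGAG (42.1%) and 0 for CAGGTAG (1.79%). The leading peaks are wider than most, which leaves more room for a match. The G+C content was 61.4%, 52.5% and 58.4% over 101 bp at the leading 3 summits and 49.5% at the promoter. The median of all IDR peaks was 31.7%, the value at rank 38 as well. High G+C was not limited to Kr-h1, since the weak slmo peak had 58.4%.

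The leading summits also shared a longer sequence, which was noticed on reading them and was not searched for beforehand. The longest word present within 50 bp of all 3, on either strand, was TTTTCGAC, and aligning its copies with 10 bases on each side left the pattern GTGCNNNNNTTTTCGAC, identical at 12 of 17 positions. The strongest peak has 2 copies and each of the others 1. The copies lie in 2L at 6088470 to 6088486 and 6088530 to 6088546, centred 22 bp before and 38 bp after the strongest summit, at 6079087 to 6079103, centred 28 bp before the second, and at 6081447 to 6081463 on the minus strand, centred 3 bp from the third. Written on the strand of the pattern with the shared bases in capitals, they read as follows.
The strongest peak, first copy: GTGCatgggTTTTCGAC
The strongest peak, second copy: GTGCgcgagTTTTCGAC
The second peak: GTGCacgggTTTTCGAC
The third peak: GTGCaacgaTTTTCGAC

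**Figure D5:**
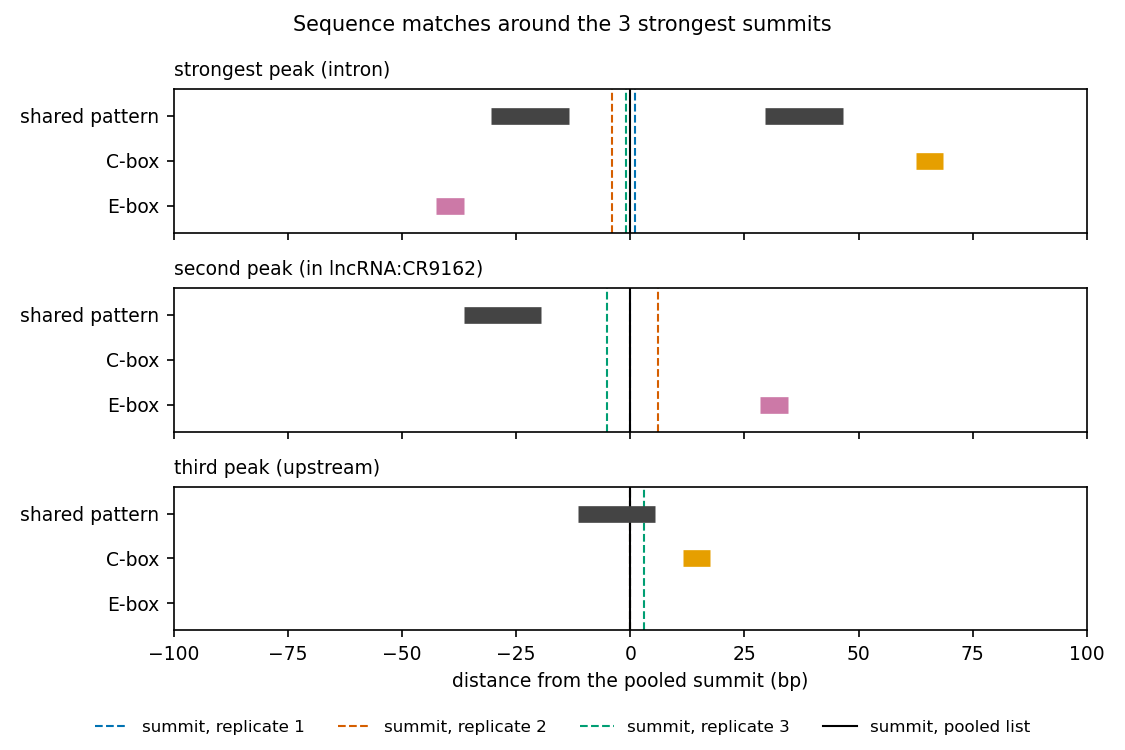
Positions of the E-box, the C-box and the shared pattern within 100 bp of the 3 strongest summits, in bp from the pooled summit; vertical lines are the summits in the pooled list and in each replicate (replicate 1 coincides with the pooled summit in the second and in the third peak, and replicate 2 in the third). Every one of the 3 has a copy of the pattern and an E-box or a C-box within 50 bp.

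The pattern fixes 12 bases, and its length alone makes it uncommon. The chromosome arms hold 17 copies, and all 4 in the Kr-h1 window lie at the leading 3 summits. None of the other 11 IDR peaks of the window has it within 50 bp of the summit. Over the whole IDR list it was at 4 summits (0.047%), the fourth being at rank 2448 on 3L, where its centre lay 1 bp from the summit. The pooled list had it at 5 summits (0.0167%). Of the 13 copies outside the window 6 lay inside a pooled peak and 3 inside an IDR peak, where pooled peaks cover 8.68% of the arms and IDR peaks 2.29%. The other IDR peaks with a copy were those of rank 1712 and rank 6530, with summits 88 and 94 bp from it. The copy at rank 1712 lay in an exon of lncRNA:CR44867 within beat-Ib. The copy at rank 6530 lay on X, in an intron of Mur2B and 2357 bp upstream of br, the metamorphosis gene broad. The word TTTTCGAC alone occurred 6705 times on the arms and at 33 IDR summits (0.388%). The pattern was made from these peaks and several shorter or longer forms were looked at, so its presence at them is no test of it, and no factor is named for it.

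No coding gene elsewhere had 3 peaks near this strength in its body and the 5 kb upstream. Noncoding genes were not searched, and Kr-h1 was itself chosen for its signals. Of 1291 coding genes elsewhere with 3 or more IDR summits in the gene and the 5 kb upstream, the 5 in which the third peak was strongest were Atat, sbb, Raf, ush and CHES-1-like. In each the third peak reached, in that order, 17.6% ± 2.89, 17.1% ± 3.31, 15.1% ± 5.15, 14.9% ± 3.78 and 13.7% ± 2.01 of the third peak of Kr-h1 (SD, n = 3 replicates). They encode a tubulin acetyltransferase, a corepressor, a protein kinase, a cofactor of GATA factors and a forkhead factor. Kr-h1 had 6 such summits and these genes 7 to 30. All 5 percentages were highest in replicate 1, where the leading Kr-h1 peaks stood least above the rest of the list.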

How the data were processed

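Peak lists were analysed from 3 ChIP-seq libraries of Met in white prepupae, grouped and numbered by the labels. Per the deposited text listings, relaxed lists of peaks exist for single replicates and for the pool of all 3, called against 1 control per build, and the IDR list comes from them. Which aligner and peak caller were used is not given in the sources used here. Of the 2 builds in the labels, dm6 was used throughout and dm3 as an alternative. The deposited lists give each peak's signal as the authors' peak caller wrote it, and its summit position. The IDR list was tested on the pooled list and is exactly its 8513 strongest peaks. Depth is unknown, so no counting interval is given.

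Peaks were placed on Ensembl release 115 genes (BDGP6.54), with pseudogenes left out, and sequences were read from the RefSeq Release 6 assembly. Coordinates count from 1. A replicate peak matched where it overlapped by at least 1 bp. Motifs were searched within 50 bp of summits on both strands. Values are given as ratios or percentages within a list, with mean and SD over 3 replicates, which came from 1 line. Genes named were Kr-h1, those whose TSS is nearest to an IDR peak of the window, the coding genes in the window, and 5 genes of like pattern. The others named stand near a peak a result turns on. Gene, lists and rules were chosen with earlier results of these data known. The shared pattern, the window and flank used for it, and the reading of the Pfas, ND-51, WDR79 and shoulder peaks were chosen after the values were seen. Scripts were tested on simulated data. Python 3.11.15, numpy 2.4.6 and pandas 2.3.3 were used.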

Additional observations from a re-analysis of the deposited data

How the results depend on the processing

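The IDR peaks in the window numbered 11 with 20 kb on either side and 19 with 100 kb. In the stronger 4256 peaks of the IDR list there were 8. Overlap in all 3 replicates held for 14 at 50% reciprocal overlap and for 12 with summits within 100 bp. It held for 8 where each replicate list was ended at the length of the IDR list, which leaves fewer peaks to match. At 50% reciprocal overlap the peak of rank 857 matched replicate 1 only through the weaker summit 65 bp downstream of the first Kr-h1 TSS. Its own replicate 1 interval, of 105 bp, was too narrow for that rule. The share of all IDR peaks is given here only for overlap by 1 bp, so these counts have none beside them. The largest summit range of the leading 3 peaks, 11 bp, was 5 to 11 bp with 1 replicate left out and 15 bp in dm3, there at the third peak. It was 5 bp without replicate 2 and 6 bp without replicate 3, and fewer summits can only narrow a range. The ratio of first to second peak stayed between 1.14 and 1.20 and that of the third peak to the outside one between 1.31 and 1.54 over replicates left out, the pooled list and dm3. An E-box or C-box was in 5 peaks anywhere, against 3 near the summit. That search and the pattern at replicate summits, with 4 copies each time, were added after seeing the data. No paired analysis was possible because there was only 1 group. The IDR list joins all replicates, so its counts could not be made without one, and no dm3 gene positions were used, so no window was counted in dm3. Unknown depth, a tagged transgene and whole animals limit what a signal shows.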
